A study of Mus musculus with 27 samples.

Results

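Proteoglycans are proteins that carry long sulphated sugar chains, and 10 genes that encode their core proteins were examined in NMuMG cells, a mouse mammary epithelial line that undergoes epithelial to mesenchymal transition (EMT) when given transforming growth factor-β (TGF-β). The genes were taken by symbol from a written list: the cell-surface syndecans Sdc1, Sdc2 and Sdc4 and glypicans Gpc1 and Gpc4, and the secreted matrix proteoglycans Vcan, Bgn, Dcn, Hspg2 and Agrn. The list was chosen with earlier results of these data known, so its counts and medians beside those of all genes are a description. All 10 were found among the 23295 genes of the table of parental cells and among the 24247 genes of the table of shRNA cells. RNA-seq was made of parental cells (6 libraries) and of cells infected with lentivirus carrying an irrelevant shRNA (control) or an shRNA against lamin B1 (knockdown, KD; 12 libraries together). In each of these, cells were untreated or were given TGF-β at 1 to 5 ng/ml for 8 h or 24 h, with 2 biological replicates per group. Lamin B1 ChIP-seq and ATAC-seq, which maps open chromatin, gave 1 library per time point each, and the lamin B1 libraries mixed parallel immunoprecipitations. The KD lowers lamin B1 without removing it, and the dose of TGF-β in a given library is known only as the range above.

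Syndecans span the membrane and carry heparan sulphate, and their short cytoplasmic tails bind adaptor and cytoskeletal proteins. Glypicans are held on the outer leaflet of the membrane by a lipid anchor. Through their heparan sulphate chains both families bind growth factors and act as co-receptors. Versican (Vcan) is a large chondroitin sulphate proteoglycan of provisional matrix, biglycan (Bgn) and decorin (Dcn) are small leucine-rich proteoglycans that bind collagen and TGF-β, and perlecan (Hspg2) and agrin (Agrn) are heparan sulphate proteoglycans of basement membranes.

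The values are FPKM, fragments scaled to transcript length and to the mapped fragments of the library, so levels can be compared between genes of 1 table. The parental and the shRNA tables were normalised separately, and levels are set side by side across them without a test. Replicate libraries of a group had a Pearson r of 0.983 to 0.994 across genes. Read counts were not used here. Relative depth was estimated from the most common FPKM ratio to the first library of the table, over detected genes with very low values. It came to 78.7% to 116% of that first library, lowest in KD 8 h replicate 2. The estimate assumes that this ratio comes from genes with equal numbers of reads, which was not checked. The 10 most abundant genes took 11.4% to 40.4% of the FPKM sum. The epithelial list was led by Krt8 in every group, with a summed level of 4333 to 7013 FPKM, while the tight junction genes Cldn3 and Cldn7 of that list were at or near 0. Of its 10 markers, 5 had a mean of at least 1 FPKM in untreated cells of each kind, 7 at 8 h, and 6 or 7 at 24 h. The sum was carried by Krt8 and Krt18, and Krt19, Cdh1 and Ocln had lower values with TGF-β. Other markers of the list went the other way, from means under 1 FPKM untreated to at least 1 FPKM at 8 h. The mean of Krt8 in parental cells was higher at 8 h, at 2027 FPKM untreated, 2591 FPKM after 8 h and 2131 FPKM after 24 h. In parental cells Krt19 was at 1005 and 982 FPKM untreated and 55.5 and 69.1 FPKM after 24 h, and the epithelial cadherin Cdh1 was at 113 and 119 FPKM and then 39.4 and 41.1 FPKM. Lmnb1, the target of the shRNA, was at 29.2 and 36.5 FPKM in untreated control cells and at 9.01 and 9.27 FPKM in untreated KD cells. Its mean in KD cells was 27.8% of control without TGF-β, 24.5% at 8 h and 32.8% at 24 h, and the libraries of the 2 groups did not overlap at any time. Lmnb1 also fell with TGF-β in parental cells, from 36.9 and 36.3 FPKM to 19.5 and 17.6 FPKM at 24 h.

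Promoter sequences are shown for Gpc1, Vcan and Sdc2, the 3 genes with the largest rise at 24 h in parental cells among those with a lamin B1 or ATAC peak at the start of the gene. Each runs 5′ to 3′ on the strand of the gene, from 250 bases before the annotated transcription start site (TSS) to 50 bases from it on, and was read from the mm9 genome at the GENCODE M1 start. Capitals mark the GC box GGGCGG on either strand, where overlapping matches run together.
Gpc1, chr1:94727972-94728271, plus strand: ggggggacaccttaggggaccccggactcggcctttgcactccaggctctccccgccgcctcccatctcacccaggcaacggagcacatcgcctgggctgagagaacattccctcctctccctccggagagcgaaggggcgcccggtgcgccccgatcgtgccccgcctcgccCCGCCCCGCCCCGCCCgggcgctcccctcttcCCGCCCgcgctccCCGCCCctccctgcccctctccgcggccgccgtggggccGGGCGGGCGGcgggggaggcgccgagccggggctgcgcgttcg
Vcan, chr13:89882068-89882367, minus strand: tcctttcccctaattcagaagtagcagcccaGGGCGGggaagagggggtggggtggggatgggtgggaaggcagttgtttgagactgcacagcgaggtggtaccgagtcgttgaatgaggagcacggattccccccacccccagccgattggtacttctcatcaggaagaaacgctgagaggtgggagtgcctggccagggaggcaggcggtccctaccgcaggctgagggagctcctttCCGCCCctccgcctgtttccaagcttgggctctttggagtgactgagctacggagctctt
Sdc2, chr15:32850228-32850527, plus strand: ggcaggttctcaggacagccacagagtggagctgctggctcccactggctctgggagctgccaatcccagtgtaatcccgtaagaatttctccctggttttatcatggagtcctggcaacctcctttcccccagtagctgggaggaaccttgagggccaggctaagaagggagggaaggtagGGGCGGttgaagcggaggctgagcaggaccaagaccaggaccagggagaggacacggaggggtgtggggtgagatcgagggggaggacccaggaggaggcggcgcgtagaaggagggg
The GC box matched 7 times in the window of Gpc1, 2 times in that of Vcan and 1 time in that of Sdc2. It was found in the windows of 9 of the 10 genes, all but Sdc4, and in 44.5% of 20994 promoters of the same length. The annotated start of Sdc4 is that of a processed transcript 701 bp upstream of its only coding start, and that of Bgn is a processed transcript 33 bp upstream of its first coding start. The SMAD motif CAGACA was found on either strand in Hspg2 alone and in 18.8% of all promoters. The E-box CACCTG was found in Sdc1 alone and in 19.7% of all promoters. The AP-1 site TGAGTCA, whose reverse complement is TGACTCA, was found in none of the 10 and in 4.41% of all promoters. The GC content of the windows was highest in Agrn (83.3%) and Gpc1 (78.3%) and lowest in Dcn (43.3%), with a median of 55.7% over all promoters.

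Sdc1, the main syndecan of epithelial cells, had the highest level of the 10 in every group, and made up 52.3% to 63.7% of their summed FPKM. Sdc4 came next and then Agrn in untreated cells of all 3 kinds, with no overlap between the libraries of neighbouring ranks. Gpc1 stood at rank 4 without TGF-β and passed Agrn by 8 h. At 24 h Gpc1 stood at rank 2 in parental cells (74.1 ± 3.45 FPKM, SD, n = 2) and in control cells (69.0 ± 0.720 FPKM, SD, n = 2). In KD cells at 24 h Gpc1 (62.4 ± 7.48 FPKM, SD, n = 2) and Sdc4 (67.1 ± 5.63 FPKM, SD, n = 2) had overlapping libraries. The summed level of the 10 genes was 345 FPKM in untreated parental cells and 494 FPKM at 24 h.

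**Figure D1:**
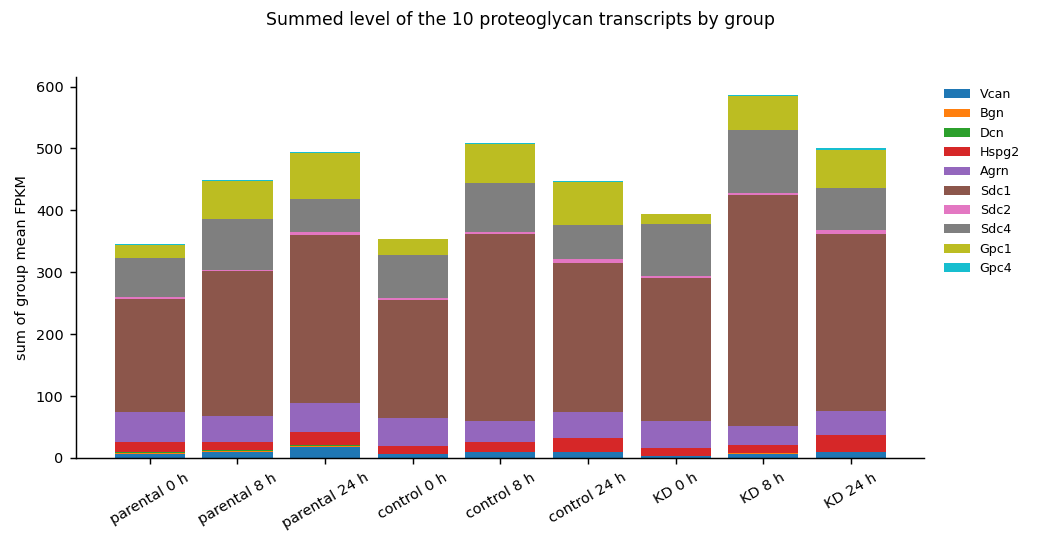
Sum of the group mean FPKM of the 10 proteoglycan genes (vertical axis, FPKM) in each of 9 groups (horizontal axis), with 1 colour per gene and 2 libraries per group. Sdc1 makes up 52.3% to 63.7% of each bar, and the parental bars rise from 345 FPKM untreated to 494 FPKM at 24 h; parental and shRNA bars come from tables normalised separately.

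On the log2(FPKM + 1) scale the largest rises in parental cells at 24 h were those of Gpc1, Vcan and Sdc2, while at 8 h Sdc2 was not called. Genes were tested with limma on log2(FPKM + 1), a scale that understates changes of low genes, over the 11309 genes that reached 1 FPKM in 2 or more libraries, and were called at a Benjamini-Hochberg adjusted p under 0.05. All 10 proteoglycan genes passed that filter. At 8 h 4 of the 10 were called higher (22.4% of all tested genes) and 1 lower (32.1% of all). At 24 h 5 were called higher (33.4% of all) and 1 lower (37.1% of all), and from 8 h to 24 h 7 were called higher (27.7% of all) and 1 lower (24% of all). The median log2 fold change of the 10 at 24 h was 0.41, against -0.02 over all tested genes. Without 24 h library b, 5 members were called from 8 h to 24 h, as Agrn, Hspg2 and Gpc4 were no longer called. The 8 h and 24 h comparisons share their untreated libraries.

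Among the syndecans, Sdc1 was at 182 and 183 FPKM in untreated parental cells, 256 and 213 FPKM after 8 h and 267 and 275 FPKM after 24 h. It was already abundant before treatment and was called higher at 8 h (log2 fold change 0.36, SE 0.0783, adjusted p = 0.00783) and at 24 h (0.57, SE 0.0783, adjusted p = 0.00051). Sdc4, a syndecan of focal adhesions, went up and then down. It was at 63.3 and 64.0 FPKM untreated, 83.0 and 81.5 FPKM after 8 h and 53.7 and 52.4 FPKM after 24 h, and the libraries of the 3 time points did not overlap. It was called higher at 8 h (0.37, SE 0.0358, adjusted p = 0.000234), lower at 24 h (-0.26, SE 0.0358, adjusted p = 0.000534) and lower at 24 h than at 8 h (-0.62, SE 0.0358, adjusted p = 2.42e-05). Sdc2, the syndecan of mesenchymal cells, was low. It was at 2.29 and 2.48 FPKM untreated, 2.19 and 3.31 FPKM after 8 h and 5.00 and 5.13 FPKM after 24 h. Its libraries overlapped between untreated and 8 h and stood apart at 24 h, where it was 2.12 times the untreated mean (log2 fold change 0.84, SE 0.131, adjusted p = 0.000946).

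In control cells Sdc4 was again highest at 8 h and lowest at 24 h, and Sdc2 was again highest at 24 h. Sdc1 was at 199 and 184 FPKM untreated, 307 and 298 FPKM after 8 h and 240 and 242 FPKM after 24 h, so that its highest level was at 8 h. Sdc4 was at 72.5 and 66.0 FPKM, 79.9 and 79.1 FPKM, and 55.9 and 55.5 FPKM. Sdc2 was at 2.54 and 2.30 FPKM, 2.55 and 2.22 FPKM, and 5.88 and 5.31 FPKM, higher at 24 h by a log2 fold change of 0.95 (SE 0.132, adjusted p = 0.000183). The call of Sdc4 at 8 h (0.20, SE 0.0614, adjusted p = 0.0195) was lost when control 0 h replicate 2, control 8 h replicate 1 or control 8 h replicate 2 was left out, with adjusted p-values of 0.122, 0.0795 and 0.0646.

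Among the glypicans, Gpc1 had the largest rise of the 10 genes in parental cells at both times. It was at 21.3 and 20.9 FPKM untreated, 63.4 and 57.8 FPKM after 8 h and 76.6 and 71.7 FPKM after 24 h. These are 2.87 times the untreated mean at 8 h (log2 fold change 1.48, SE 0.0558, adjusted p = 1.86e-05) and 3.51 times at 24 h (1.76, SE 0.0558, adjusted p = 8.82e-07). In control cells Gpc1 was at 24.4 and 28.1 FPKM, 64.1 and 63.0 FPKM, and 68.5 and 69.5 FPKM. It was called higher there at 8 h (1.25, SE 0.0852, adjusted p = 3.43e-06) and at 24 h (1.36, SE 0.0852, adjusted p = 1.04e-06), and most of that rise was in place by 8 h.

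Gpc4 behaved differently by table. In parental cells it was at 1.34 and 1.70 FPKM untreated, 1.34 and 1.33 FPKM after 8 h and 1.92 and 1.91 FPKM after 24 h, and it was not called against untreated cells at either time (adjusted p = 0.31 and 0.0538). In control cells it was at 0.254 and 0.200 FPKM, 1.08 and 1.09 FPKM, and 2.27 and 1.87 FPKM. It was called higher there at 8 h (0.77, SE 0.182, adjusted p = 0.00538) and at 24 h (1.32, SE 0.182, adjusted p = 0.000173). The mean at 24 h was 9.12 times the untreated mean of only 0.227 FPKM. Gpc4 passed the filter in shRNA cells only through its libraries with TGF-β, so both calls are of a gene kept for its high treated level. The untreated level was thus at least 1.34 FPKM in parental libraries and at most 0.254 FPKM in control libraries, and this difference between tables was not tested.

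Of the matrix proteoglycans, Vcan rose in steps. In parental cells it was at 6.10 and 7.44 FPKM untreated, 10.0 and 9.83 FPKM after 8 h and 16.7 and 18.5 FPKM after 24 h, with no overlap between time points. The log2 fold change was 0.50 at 8 h (SE 0.0884, adjusted p = 0.00315) and 1.26 at 24 h (SE 0.0884, adjusted p = 1.79e-05). In control cells Vcan was at 5.40 and 6.26 FPKM, 9.81 and 8.92 FPKM, and 9.04 and 10.2 FPKM. The libraries at 8 h and 24 h overlapped there, and both times were called higher than untreated (0.60, SE 0.0981, adjusted p = 0.000644, and 0.64, SE 0.0981, adjusted p = 0.00035).

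Bgn and Dcn were the least abundant in untreated shRNA cells and were lower there than in parental cells. Bgn was at 1.00 and 0.690 FPKM in untreated parental cells and 1.91 and 1.80 FPKM at 24 h (log2 fold change 0.63, SE 0.101, adjusted p = 0.00108). In control cells it was at 0.037 and 0.036 FPKM untreated and 0.769 and 0.698 FPKM at 24 h. Dcn was between 1.13 and 1.52 FPKM in all 6 parental libraries, and was between 0 and 0.082 FPKM in the 12 shRNA libraries. Neither gene reached 1 FPKM in 2 shRNA libraries, so neither was tested there, and Dcn was not called in any parental comparison. The fibroblast, adipocyte and endothelial lists were also lower in shRNA than in parental cells. The blood list was alike in untreated parental (1.59 to 1.66 FPKM) and untreated control libraries (1.55 to 1.78 FPKM). Of the 10 fibroblast markers, 3 had a mean of at least 1 FPKM in untreated parental cells and 0 in untreated control cells. The 10 fibroblast markers summed to 8.22 to 18.4 FPKM in parental libraries and to 0.247 to 9.03 FPKM in shRNA libraries, where Lum and Thy1 were listed at 0. In untreated cells that sum was 8.22 to 8.75 FPKM in parental and 0.247 to 0.334 FPKM in control libraries. The adipocyte marker Fabp4 had group means of 4.86 to 5.41 FPKM in parental cells and at most 0.151 FPKM in shRNA cells, while Adipoq and Lep of that list were listed at 0 in parental cells. The 5 endothelial markers summed to 1.25 to 2.01 FPKM in parental and 0.0132 to 0.608 FPKM in shRNA libraries. The part of such cells in the levels of Bgn, Dcn and Gpc4 was not tested, and fewer cells of a type and less RNA per cell cannot be told apart in these bulk samples.

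Neither basement membrane gene was called at 24 h against untreated cells in parental or control cells, while Hspg2 was called in KD cells, as given below. Agrn was at 46.7 and 49.1 FPKM in untreated parental cells, 38.1 and 43.9 FPKM after 8 h and 46.8 and 47.7 FPKM after 24 h, a dip at 8 h (log2 fold change -0.22, SE 0.0672, adjusted p = 0.0284) with no call at 24 h (adjusted p = 0.827). The call at 8 h was lost without either untreated library and without 8 h library a, with adjusted p-values of 0.0652, 0.138 and 0.0938. In control cells Agrn was at 48.2 and 41.1 FPKM, 33.4 and 33.0 FPKM, and 42.7 and 42.3 FPKM, lower at 8 h by a log2 fold change of -0.41 (SE 0.11, adjusted p = 0.0096). Without control 0 h replicate 1 the adjusted p was 0.0712. Hspg2 was at 15.2 and 20.0 FPKM untreated, 11.98 and 15.5 FPKM after 8 h and 20.5 and 21.4 FPKM after 24 h in parental cells. It was called only between 8 h and 24 h there (0.59, SE 0.144, adjusted p = 0.0132), and without 24 h library b the adjusted p was 0.0647. In control cells Hspg2 was at 13.6 and 13.8 FPKM, 17.6 and 16.1 FPKM, and 18.1 and 24.8 FPKM, and its 24 h value was not called (0.59, SE 0.248, adjusted p = 0.0575). Over 10 alternatives that adjusted p ran from 0.0217 to 0.294 and passed the threshold in 4.

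**Figure D2:**
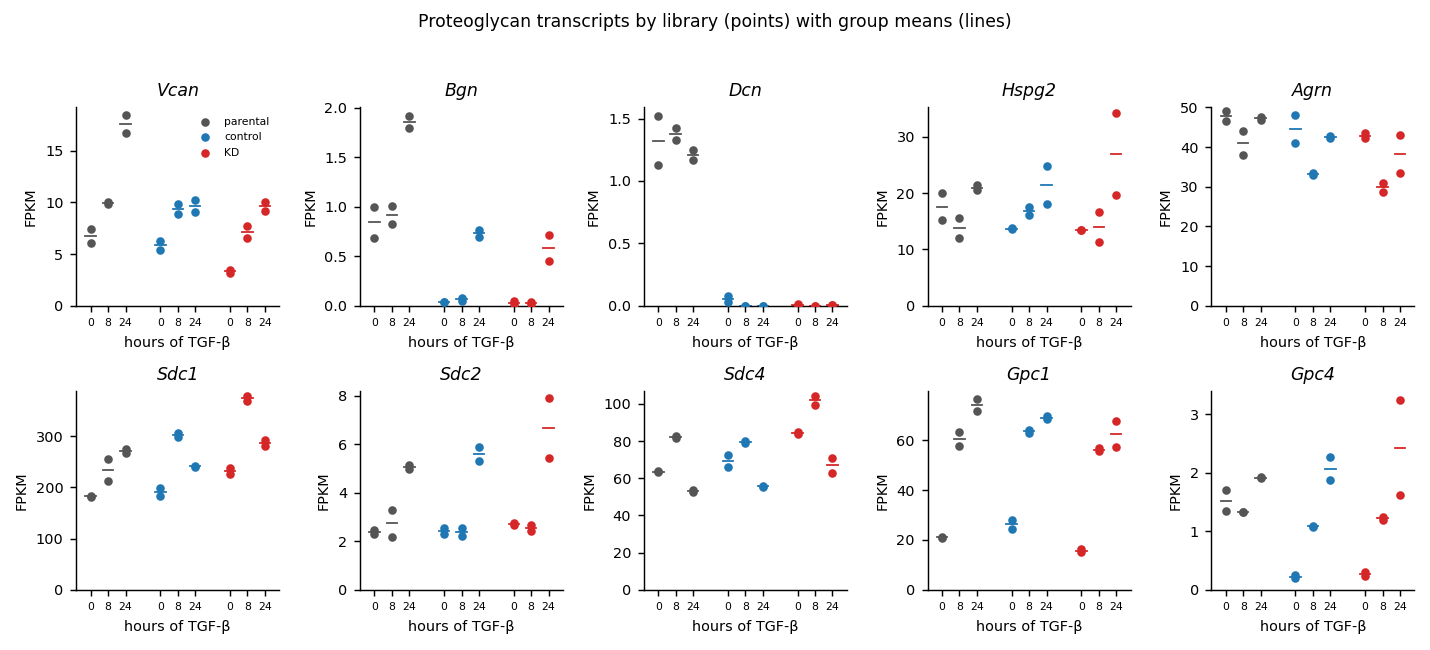
FPKM (vertical axis, from 0) of each of the 10 genes against hours of TGF-β (horizontal axis) in parental (grey), control (blue) and KD (red) cells, with 1 point per library and a line at the mean of each group of 2. Gpc1 climbs in all 3 kinds of cells, Sdc4 peaks at 8 h, and Dcn lies between 1.13 and 1.52 FPKM in parental libraries and at or below 0.082 FPKM in shRNA libraries.

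Of the 10 genes, 8 passed the filter in shRNA cells, all but Bgn and Dcn, among 11450 genes tested. Gpc4 passed only through its libraries with TGF-β, as its untreated libraries were at 0.200 to 0.308 FPKM. It is among the genes called higher in each TGF-β comparison that follows, so these counts hold a gene kept for its high treated level. Against untreated cells, 5 of the 8 were called higher in control cells at 8 h (19.4% of all tested genes) and 1 lower (44.9% of all). At 24 h 5 were called higher (25.5% of all) and 1 lower (45.1% of all). In KD cells 5 were called higher at 8 h (23% of all) and 1 lower (44.8% of all), and 6 were called higher at 24 h (28.6% of all) and 1 lower (43.3% of all). The median log2 change of all genes was itself below 0 in these 4 comparisons, at -0.14, -0.13, -0.13 and -0.10. After quantile normalization or median-ratio scaling it was at the lowest -0.03, and the share of higher calls among all calls went from 30.2%, 36.1%, 33.9% and 39.8% to 48.2%, 50.7%, 48.9% and 48.9% with median-ratio scaling. Every called member kept its direction under both scalings, and Agrn in control cells at 8 h was no longer called with median-ratio scaling (adjusted p = 0.057).

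**Figure D3:**
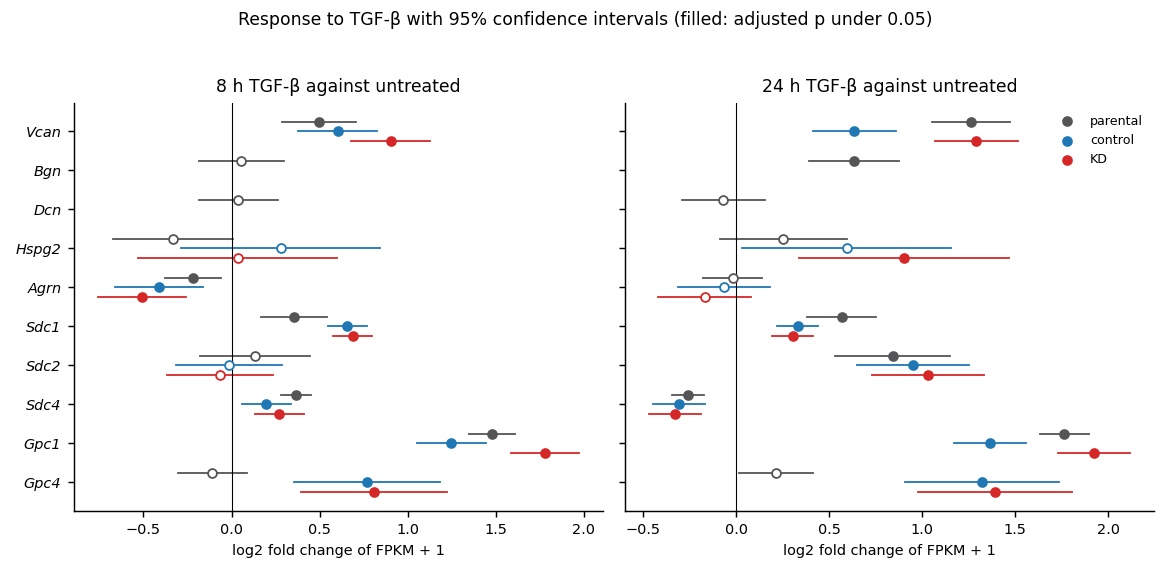
Log2 fold change of FPKM + 1 (horizontal axis) at 8 h (left) and 24 h (right) against untreated cells for each gene, in parental (grey), control (blue) and KD (red) cells; bars are 95% confidence intervals from limma and filled points have an adjusted p under 0.05. Gpc1 lies at 1.76, 1.36 and 1.92 at 24 h, Sdc4 is above 0 at 8 h and below 0 at 24 h in all 3, and Bgn and Dcn were tested in parental cells only.

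Lamin B1 KD was compared with control cells to ask whether lowering lamin B1 alters these transcripts and their response. The syndecans Sdc1 and Sdc4 were higher in KD cells at all 3 times, while Gpc1 and Vcan were lower before TGF-β. Without TGF-β 2 of the 8 tested genes were called higher (10.6% of all tested genes) and 2 lower (9.09% of all). At 8 h 2 were called higher (19.3% of all) and 1 lower (16.5% of all), and at 24 h 2 were called higher (16.8% of all) and 0 lower (11.5% of all; 0 of the 8 also at an unadjusted p under 0.05).

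Sdc1 in KD cells was at 238 and 225 FPKM untreated, 369 and 378 FPKM after 8 h and 293 and 280 FPKM after 24 h, above both control libraries each time. The log2 fold change against control was 0.27 (SE 0.0484, adjusted p = 0.0065), 0.31 (SE 0.0484, adjusted p = 0.00199) and 0.25 (SE 0.0484, adjusted p = 0.00683). Sdc4 in KD cells was at 83.9 and 84.6 FPKM, 99.6 and 104 FPKM, and 71.1 and 63.1 FPKM, again above both control libraries each time. Its log2 fold change was 0.28 (SE 0.0614, adjusted p = 0.0153), 0.35 (SE 0.0614, adjusted p = 0.00291) and 0.26 (SE 0.0614, adjusted p = 0.0149). Sdc2 in KD cells, at 2.67 and 2.76 FPKM, 2.65 and 2.44 FPKM, and 5.45 and 7.91 FPKM, was not called against control at any time, with 95% intervals of the log2 difference of -0.18 to 0.42, -0.23 to 0.37 and -0.10 to 0.50.

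Gpc1 in untreated KD cells was at 15.1 and 16.2 FPKM, below the 24.4 and 28.1 FPKM of control cells (log2 fold change -0.71, SE 0.0852, adjusted p = 0.00112). With TGF-β the gap was smaller, with 56.7 and 55.4 FPKM after 8 h and 57.1 and 67.7 FPKM after 24 h in KD cells. The difference from control was not called at 8 h (-0.18, 95% interval -0.37 to 0.02) or at 24 h (-0.15, 95% interval -0.34 to 0.05). Vcan followed the same order by value. It was at 3.20 and 3.47 FPKM in untreated KD cells (-0.65, SE 0.0981, adjusted p = 0.00321), 7.72 and 6.53 FPKM at 8 h (-0.35, SE 0.0981, adjusted p = 0.0224) and 9.18 and 10.0 FPKM at 24 h, where its mean was that of control cells (0.00, 95% interval -0.22 to 0.22).

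For Gpc4 and Agrn no difference between KD and control cells was called. Gpc4 was at 0.235 and 0.308 FPKM, 1.20 and 1.25 FPKM, and 1.62 and 3.25 FPKM in KD cells. Agrn was at 43.5 and 42.2 FPKM, 31.1 and 28.6 FPKM, and 33.5 and 43.1 FPKM. Hspg2 was at 13.4 and 13.4 FPKM, 16.6 and 11.4 FPKM, and 19.7 and 34.1 FPKM, with the widest intervals of the 8 genes. Its rise at 24 h against untreated KD cells (0.90, SE 0.248, adjusted p = 0.0094) was lost without KD 24 h replicate 2, the library with the higher value (0.52, adjusted p = 0.0558). The difference in log2 response between KD and control cells was 0.31 (95% interval -0.49 to 1.11) and was not called.

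Several of these calls were lost when 1 library was left out, which leaves 1 library in its group, while the log2 fold changes kept their sign. With each library left out in turn, they ran from 0.22 to 0.33 for Sdc1 and from 0.21 to 0.35 for Sdc4 in untreated cells. For Vcan at 8 h they ran from -0.46 to -0.25. Without KD 0 h replicate 1, Sdc1 and Sdc4 were not called in untreated cells (adjusted p = 0.0632 and 0.0837), and Sdc4 was not called without control 0 h replicate 2 or KD 0 h replicate 2 either (0.0689 and 0.0879). Vcan at 8 h lost its call without control 8 h replicate 1, control 8 h replicate 2 or KD 8 h replicate 2 (0.134, 0.0507 and 0.149). At 24 h no member was called without control 24 h replicate 1 and 1 without control 24 h replicate 2, against 5 without KD 24 h replicate 1 and 4 without KD 24 h replicate 2.

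**Figure D4:**
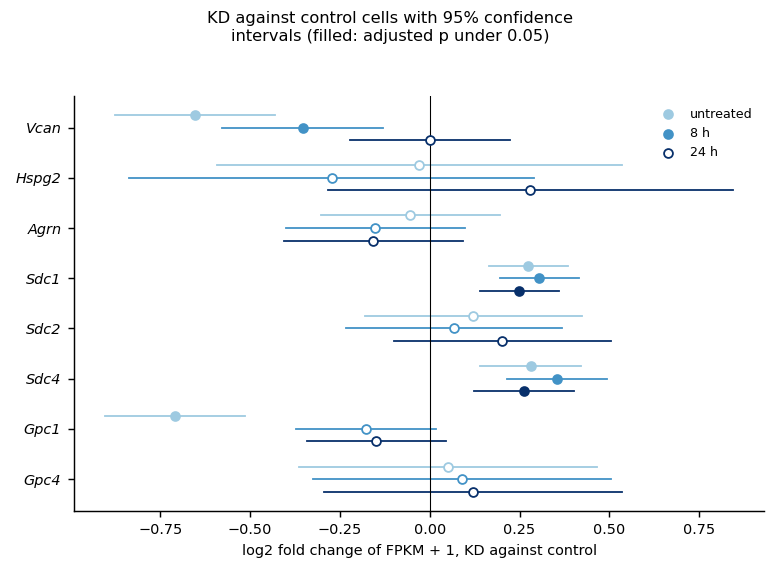
Log2 fold change of FPKM + 1 in KD against control cells (horizontal axis) for the 8 genes tested in the shRNA table, untreated (light blue), at 8 h (mid blue) and at 24 h (dark blue) of TGF-β; bars are 95% confidence intervals from limma and filled points have an adjusted p under 0.05. Sdc1 and Sdc4 lie between 0.25 and 0.35 at all 3 times, and Gpc1 (-0.71) and Vcan (-0.65) are lowest without TGF-β.

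The response to TGF-β itself was compared between KD and control cells as an interaction. At 8 h 1 of the 8 tested genes was called (4.06% of all tested genes) and at 24 h 2 were called (4.72% of all). Gpc1 rose 3.59 times in KD cells and 2.42 times in control cells at 8 h, and 3.99 and 2.63 times at 24 h. The difference in log2 response was 0.53 at 8 h (SE 0.121, adjusted p = 0.0487) and 0.56 at 24 h (SE 0.121, adjusted p = 0.0392). Vcan rose 2.88 times in KD and 1.65 times in control cells at 24 h, a difference of 0.66 (SE 0.139, adjusted p = 0.0376). These comparisons share the untreated libraries with the KD against control comparison above, in which both genes were lower. The call of Gpc1 at 8 h was lost on leaving out any of 7 libraries (all but control 0 h replicate 1), with adjusted p-values up to 0.169. At 24 h Gpc1 lost its call without either untreated KD library or either control 24 h library (up to 0.154), and Vcan without these and without KD 24 h replicate 2 (up to 0.156).

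Lamin B1 and ATAC peaks were placed on the genes, with a peak counted where at least 1 bp of it fell on the gene or on the 2500 bp before its TSS. There was 1 library per time point, so peak differences have no replicate check. Lamin B1 peaks lay at 4 of the 10 genes at each time, against 19.9% of 20994 placed genes without TGF-β, 38.8% of them after 8 h and 29.4% after 24 h. The genes were Vcan, Sdc1, Sdc4 and Gpc1 in untreated cells, Agrn, Sdc1, Sdc4 and Gpc1 at 8 h, and Hspg2, Sdc4, Gpc1 and Gpc4 at 24 h. Sdc4 and Gpc1 were lamin B1 + at all times, as were 13.2% of all placed genes. Bgn, Dcn and Sdc2 were lamin B1 + at none, as were 54.3%. The placed genes include genes that did not pass the expression filter in parental cells, which all 10 members passed. The paper reports more lamin B1 around the TSS of genes with higher expression. Shares over genes of like expression were not computed, here or for the ATAC peaks below.

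At Gpc1 (chr1:94728222-94756775, plus strand) the lamin B1 peak covered the TSS at each time, with a peak score of 70.9 without TGF-β, 85.9 after 8 h and 171 after 24 h. These scores stood at or above 52.1%, 56.7% and 89.8% of the peaks of their own lists, from lists of 4645, 10484 and 7083 peaks. At Sdc4 (chr2:164249747-164269387, minus strand) the peaks covered the coding start, with scores of 83.7, 57.1 and 88.6, or 68.2%, 15.6% and 54.9% of their lists. At Vcan (chr13:89794915-89882117, minus strand) the 1 lamin B1 peak, in untreated cells, covered the TSS with a score of 52.1, close to the lowest score of the list (50). The 5′ end of Vcan overlaps an annotated gene on the other strand, Gm4117. The paper shows RNA-seq profiles of NMuMG cells by strand, but whether the FPKM were counted by strand is not given in the sources used here. At Sdc1 (chr12:8778129-8800521, plus strand) the peak covered the TSS in untreated cells (score 67.0) and was centred 1091 bp downstream at 8 h (87.4). The peaks of Hspg2 and Gpc4 at 24 h, centred 502 and 609 bp downstream of the TSS, had scores of 50.9 and 58.7, low in their list. The peak of Agrn at 8 h lay inside the gene, 25216 bp downstream.

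ATAC peaks lay at 5 of the 10 genes without TGF-β (37% of all placed genes), at 5 after 8 h (32.9% of all) and at 7 after 24 h (60% of all). The 24 h list held 33811 peaks, against 9782 and 10340 in the others, so a peak found only at 24 h has to be read with that length. Bgn, Dcn and Gpc4 had no ATAC peak at any time. Sdc2, whose promoter is printed above, carried an ATAC peak on its TSS at 8 h (score 50.9, at or above 2.21% of its list) and at 24 h (150, 48.6% of its list), and its RNA was called higher at 24 h. Gpc1 carried one on its TSS at each time, with scores of 76.1, 68.8 and 275. Vcan had none at its TSS, but one at 2008 to 2558 bp downstream of it at each time, over another coding start of the gene, with scores of 82.2, 56.6 and 424. Sdc4 had an intragenic peak about 11 kb downstream at each time, with scores of 90.1, 97.6 and 502, which is at or above 47.8%, 76.8% and 94.2% of the lists. The median score of those lists was 93.1, 73.9 and 155, so the scores are given side by side and not as a change at the locus.

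**Figure D5:**
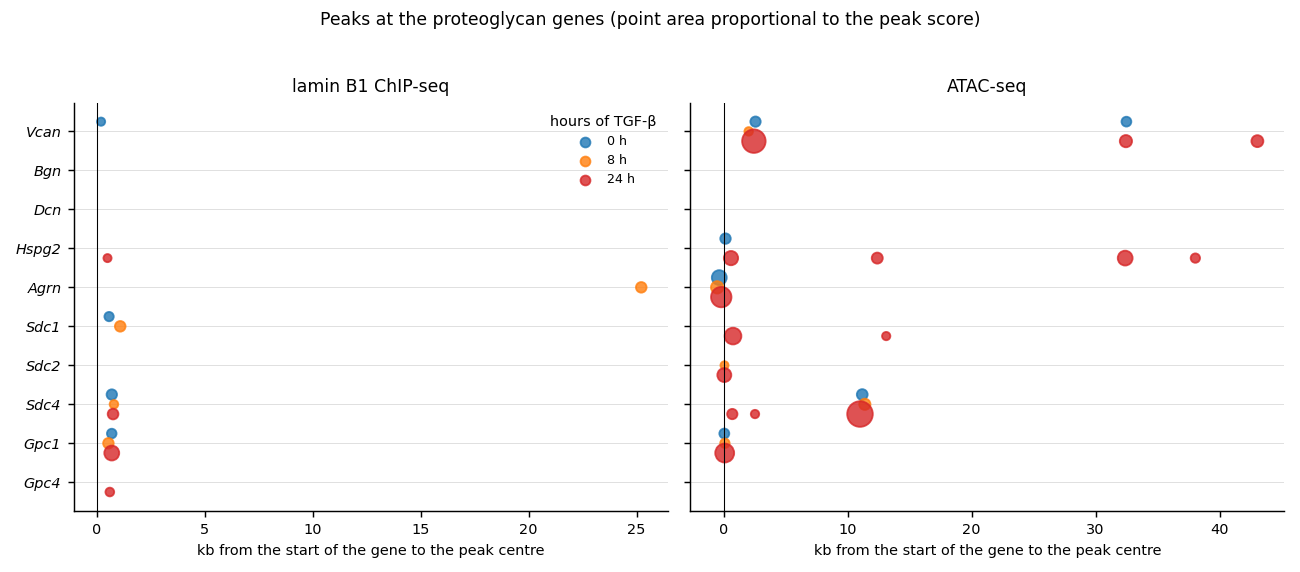
Distance in kb from the start of the gene to the centre of each lamin B1 (left) and ATAC (right) peak on the 10 genes, at 0 h (blue), 8 h (orange) and 24 h (red) of TGF-β, with point area proportional to the peak score and 1 library per time point. Gpc1 and Sdc4 carry a lamin B1 peak at all 3 times, and the largest ATAC points are those of Sdc4 (502) and Vcan (424) at 24 h.

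Genes that build and modify the sugar chains were followed as 3 lists, also chosen with earlier results of these data known. Of 15 tested enzymes that make the linker and polymerise the chains, 12 were called higher (33.4% of all tested genes) and 2 lower (37.1% of all) in parental cells at 24 h, with a median log2 fold change of 0.61 against -0.02 over all tested genes. The largest rises were of Ext1, a heparan sulphate polymerase (52.7 and 54.2 FPKM to 140 and 141 FPKM; log2 fold change 1.38), and Chsy1, a chondroitin synthase (1.28). The largest falls were of Csgalnact2 (-0.54), which starts chondroitin chains, and of Fam20b (-0.19), a kinase of the linker. All 7 tested enzymes that modify chondroitin and dermatan sulphate were called higher (33.4% of all), led by the sulphotransferases Chst11 (2.58 and 3.06 FPKM to 23.9 and 22.0 FPKM; 2.65) and Ust (1.11). Of 11 tested heparan sulphate modifying enzymes 6 were called higher (33.4% of all) and 4 lower (37.1% of all). The sulphotransferase Hs6st2 (1.34) and the epimerase Glce (1.19) rose most, and the heparanase Hpse (-1.74) and the sulphotransferase Hs3st1 (-1.40) fell most.

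Of the 28 other proteoglycan core proteins only 6 passed the filter, and 4 of these were called higher (33.4% of all) and 1 lower (37.1% of all) at 24 h in parental cells. Sdc3, the syndecan not among the 10, was at 13.5 and 14.9 FPKM untreated, 85.3 and 66.0 FPKM after 8 h and 144 and 133 FPKM after 24 h (3.20, SE 0.114, adjusted p = 1.2e-06), which is a larger rise than that of any of the 10 genes. Omd, a small leucine-rich proteoglycan, fell (-0.49, SE 0.0807, adjusted p = 0.00121). Prg4, which encodes the secreted lubricant lubricin, was at 0.175 and 0.123 FPKM untreated, 10.0 and 3.68 FPKM after 8 h and 3.99 and 3.44 FPKM after 24 h. In KD cells Prg4 was at 56.9 and 55.7 FPKM at 8 h against 15.3 and 13.1 FPKM in control cells, and at 21.6 and 20.8 FPKM against 3.97 and 4.06 FPKM at 24 h. Untreated libraries were all under 0.34 FPKM, so Prg4 passed the filter only through its libraries with TGF-β. The KD against control log2 fold change of Prg4 was 1.92 at 8 h (SE 0.0716, adjusted p = 2.76e-06) and 2.15 at 24 h (SE 0.0716, adjusted p = 1.83e-06). The largest increase in KD against control cells among the 8 tested members was 0.35, of Sdc4 at 8 h, and the largest decrease was that of Gpc1 without TGF-β (-0.71).

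For each of the 8 genes above the filter, the gene most alike in log2(FPKM + 1) over the 12 shRNA libraries was found by Pearson r. The libraries share their groups, so r is a description. Capg was most like Gpc1 (r = 0.993), Tmem2 most like Sdc1 (0.990), Polm most like Sdc2 (0.989) and Mir22hg most like Gpc4 (0.986). Baiap2l1 was most like Sdc4 (0.971), Acly most like Vcan (0.967), Akr7a5 most like Agrn (0.963) and Zfyve26 most like Hspg2 (0.95).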

How the data were processed

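RNA libraries of parental, control and KD NMuMG cells, lamin B1 ChIP-seq and ATAC-seq were used, and the Hi-C samples were not analysed here. The deposited values are FPKM per gene and library, and per the submitters' processing notes Bowtie, TopHat and Cufflinks were used with mm9; their versions and the gene annotation are not given in the sources used here. The columns of both tables were assigned from the order named in the deposited descriptions, and the parental columns carry no replicate number (libraries a and b). The authors' peak lists give mm9 positions and a MACS score per peak, with 1 library per time point. Depth in reads is unknown. The 10 members and the gene lists were chosen with earlier results of these data known.

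Log2(FPKM + 1) was fitted with limma 3.58.1 in R 4.3.3 (trend, 1 fit per table with all its libraries) over genes that reached 1 FPKM in 2 or more libraries, with 12 contrasts and the Benjamini-Hochberg adjustment over all tested genes. The fit was run on simulated data with independent normal noise and known shifts, to check that shifts are recovered. Unequal spreads between groups and shared deviations were not simulated, so that run says nothing on them. P-values rest on the spread between biological replicates, 2 per group, pooled over all groups of a table and moderated over genes. They do not measure the spread within only the groups compared. GENCODE M1 on mm9 placed 20994 of 23295 genes of the parental table by symbol, the 10 members among them. Promoter sequences were read from the mm9 genome, and protein sequences were not used here. Named genes were the 10 members, Lmnb1, the 2 largest called rises and falls of each list in parental cells at 24 h, and the most alike gene per member. Alternatives were a pseudocount of 0.1, no filter, quantile normalization, median-ratio scaling, only the groups compared, the replicate block, leaving out each library, stricter or equally long peak lists and windows of 2500 or 500 bp around the TSS. Python 3.11.15 with pandas 2.3.3 and numpy 2.4.6 was used.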

Additional observations from a re-analysis of the deposited data

Results flagged for a closer look

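Gpc1, Vcan and Prg4 responded to TGF-β differently in KD and control cells by the interaction test of limma, over 2 replicates per group. For Gpc1 the difference in log2 response, KD minus control, was 0.53 at 8 h and 0.56 at 24 h. It kept its call in 4 of 14 alternatives at 8 h (adjusted p from 0.0333 to 0.169) and in 6 of 14 at 24 h (0.00375 to 0.154), always with the same sign. For Vcan at 24 h the difference was 0.66, called in 5 of 14 alternatives (0.0147 to 0.156). For Prg4, named from the list of other core proteins, it was 1.80 at 8 h and 2.03 at 24 h and was called in all 14 alternatives at each time, with the highest adjusted p at 0.00858 and 0.00142. Prg4 passed the filter only through its libraries with TGF-β, and its untreated values were below the 1 FPKM added before the log. With a pseudocount of 0.1 its difference was 1.56 at 8 h and 1.95 at 24 h. The cause of these differences in response was not tested.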

How the results depend on the processing

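Over the members' log2 fold changes and all alternatives run, 969 values stayed on their side of the threshold, 63 lost a call, 22 gained one and no called value changed sign. Among the counts of members called, "only the groups compared" gave 2 in place of 4 for KD against control untreated, 5 in place of 3 at 8 h, 0 in place of 2 at 24 h and 0 in place of 2 for the response difference at 24 h. Quantile normalization gave 1 at 24 h for KD against control, 0 for the response difference at 8 h and 1 at 24 h; no filter and median-ratio scaling gave 0 for both response differences. Correlations of the deviations of libraries with the same replicate number ran from -0.14 to 0.37 over 15 group pairs, highest between control 24 h and KD 24 h. The replicate block takes 1 effect over all times, so a pairing at 24 h alone was not tested. The block gave 1 in place of 2 for the response difference at 24 h and changed no other count of members by over 1.5 times. Over all genes it gave 284 calls in place of 465 for the response difference at 8 h. Leaving out each library gave 4 to 6 members for parental 8 h, 6 to 8 for 24 h, 5 to 8 for 24 h against 8 h, 5 for control 8 h, 6 to 7 for control 24 h, 6 for KD 8 h, 7 for KD 24 h, 2 to 4, 2 to 3 and 0 to 5 for KD against control untreated, at 8 h and at 24 h, and 0 to 1 and 0 to 3 for the response differences. Over all genes, only the groups compared gave 906 in place of 2254 calls for KD against control untreated, 818 in place of 3241 at 24 h, and 716 in place of 465 and 86 in place of 540 for the response differences, and leaving out a library gave 689 to 2506, 2330 to 2440, 1205 to 4487, 29 to 1485 and 87 to 2709 for the 3 KD comparisons and the 2 response differences. For lamin B1 peaks, 2 in place of 4 members were found with peaks at or above the median score in untreated cells and at 24 h, with lists of equal length at 24 h, and within 500 bp of the TSS at 8 h. For ATAC peaks, 3 in place of 5 were found within 500 bp in untreated cells and at 8 h, 1 and 2 with peaks at or above the median score, and 4 in place of 7 with lists of equal length at 24 h. The lone library left in a group by leaving one out is assumed to vary like the others, the causes were not tested, and with 2 replicates small changes are not resolved.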

Other observations

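Markers of blood cells stayed low in every library, with a summed level of 0.992 to 1.99 FPKM over 5 markers, led by Cd68. Hpse, a heparanase, was called higher in KD than in control cells without TGF-β (0.47 on the log2 scale, limma adjusted p = 0.00422) and at 8 h (0.40, adjusted p = 0.00424), and was not called at 24 h (0.09, adjusted p = 0.406). Fam20b was called higher in KD cells at all 3 times, by 0.25, 0.43 and 0.32 on the log2 scale (adjusted p = 0.0107, 0.000483 and 0.00268). Chst11 was called higher in KD cells at 8 h (0.29, adjusted p = 0.0431) and at 24 h (0.40, adjusted p = 0.0166), and not without TGF-β (-0.11, adjusted p = 0.466). Chsy1 was called higher without TGF-β (0.26, adjusted p = 0.0143) and at 8 h (0.20, adjusted p = 0.0232), and Hs3st1 at 8 h (0.31, adjusted p = 0.0296) and at 24 h (0.47, adjusted p = 0.00715). Glce was called lower in KD cells without TGF-β (-0.29, adjusted p = 0.0169) and at 8 h (-0.21, adjusted p = 0.0378), and Csgalnact2 at 24 h (-0.24, adjusted p = 0.0458). These calls of enzyme genes in KD against control cells were not followed through the alternatives. Calls over all genes in the same comparisons changed widely there, as given above. Outside the gene windows, Bgn had a lamin B1 peak centred 20048 bp downstream of its TSS at 24 h (score 98.4) and an ATAC peak centred at -6848 bp from its TSS at 24 h (score 81.6), and Sdc4 a lamin B1 peak centred 29802 bp downstream of its TSS at 8 h (score 61.3).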
